A study of Caenorhabditis elegans with 13 samples.

Results

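MicroRNA hairpins with both arms named in the deposited small RNA counts of whole N2 worms were examined for the arm with fewer reads, the passenger arm. A hairpin entered when its number was under 1000, both a 5p and a 3p arm were named, and it was not left out by name. Its passenger was chosen by the reads summed over the 13 libraries and kept where it had 10 or more reads in 4 or more libraries. Of 105 such hairpins, 58 gave a passenger arm, out of 434 mature microRNAs counted in all. The other 47 hairpins had too few reads on the lesser arm, and 7 of these had none.

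A microRNA hairpin is cut by Dicer into a short duplex of a 5p and a 3p strand. Usually an Argonaute protein keeps the guide strand, which then pairs with target mRNAs, and the passenger strand is discarded and degraded. The passenger is therefore rare in a small RNA library although both strands come from the same precursor, and the ratio of the arms is known to differ between hairpins, tissues and stages.

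The worms were adults of the N2 strain, the usual laboratory wild type, taken as whole bodies. There were 4 libraries of worms on the regimen labelled IF and 4 of worms on CR, at adult days 4, 6, 8 and 10, and 5 of worms fed ad libitum (AL), at days 2, 4, 6, 8 and 10. The series' design text gives CR and IF as abbreviations only. There was 1 library for each diet and day, and nothing in the labels says that libraries came from separate cultures. Diets were therefore compared over days, and p-values measure the spread between days within a diet after a common effect of day. Whatever the 3 libraries of a day share besides age, such as preparation, cannot be told apart from the day. In whole worms, fewer cells of a type and less RNA per cell cannot be told apart either. AL day 2 has no counterpart in the other diets and entered only the tests of age.

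Libraries held 2639586 to 5143918 reads on mature microRNAs. The 58 passengers took 0.152 to 0.336% of them, and 3 reads, the limit that a count of 0 allows, corresponded to 0.583 to 1.14 CPM (read counts scaled to the library total). Levels below are CPM scaled by the trimmed mean of M values (TMM), which corrects for the few microRNAs that take most reads and does not sum to a fixed total. A share is the passenger's part of all reads of its hairpin in 1 library. It needs no scaling between libraries. Intervals of shares are 95% Wilson intervals, and they cover counting error only, since reads without molecular identifiers are not independent molecules.

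Of the passengers, 39 were 5p arms and 19 were 3p arms. Their share over the 13 libraries, which chose them, ranged from 0.00548% for miR-58a-5p to 44.6% for miR-75-3p, with a median of 0.591%. It was under 1% for 37 of them, between 1 and 10% for 13 and 10% or more for 8. The 5 lowest were miR-58a-5p, miR-48-3p (0.00596%), miR-1-5p (0.0159%), miR-246-5p (0.0228%) and miR-70-5p (0.0375%). Their guides include the bantam-like miR-58a-3p, the let-7 family member miR-48-5p and the muscle microRNA miR-1-3p. The 10 highest were miR-75-3p, miR-41-5p (39.3%), miR-243-3p (39.1%), miR-47-5p, miR-83-5p, miR-79-5p, miR-232-5p, miR-77-5p, miR-229-3p (8.67%) and miR-788-5p.

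The top 3 arms held 49.8% of the 127070 passenger reads, namely miR-243-3p with 28776, miR-80-5p with 20466 and miR-41-5p with 14067 reads. The next by reads were miR-77-5p (6814), miR-44-5p (4673), miR-35-5p (4186), miR-238-5p (3118), miR-229-3p (3020), miR-51-3p (2775) and miR-42-5p (2154). Passengers that met the minimum belonged to hairpins with abundant guides, with a median of 137390 guide reads against 2797 for the hairpins that missed it. Just inside the minimum of 4 libraries were miR-239b-3p, miR-70-5p, miR-246-5p and miR-60-5p, with 791, 92, 87 and 86 reads in all. Just outside were miR-36-5p with 104 and miR-50-3p with 80 reads, both with 3 libraries of 10 reads.

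Placed on the WBcel235 annotation, the 58 hairpins lie on every chromosome, with 18 on X and 14 on II. Protein-coding genes contain 21 of them, 12 on the same strand and 9 only on the opposite strand, and none of the 21 overlaps a protein-coding exon, so these are intronic. The other 37 are intergenic with respect to protein-coding genes. Annotated passenger arms were 21 to 25 nt long with a median of 22, and guides 19 to 26 nt with a median of 23. The passenger was the shorter arm in 20 hairpins, equal in 14 and the longer in 24.

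**Figure D1:**
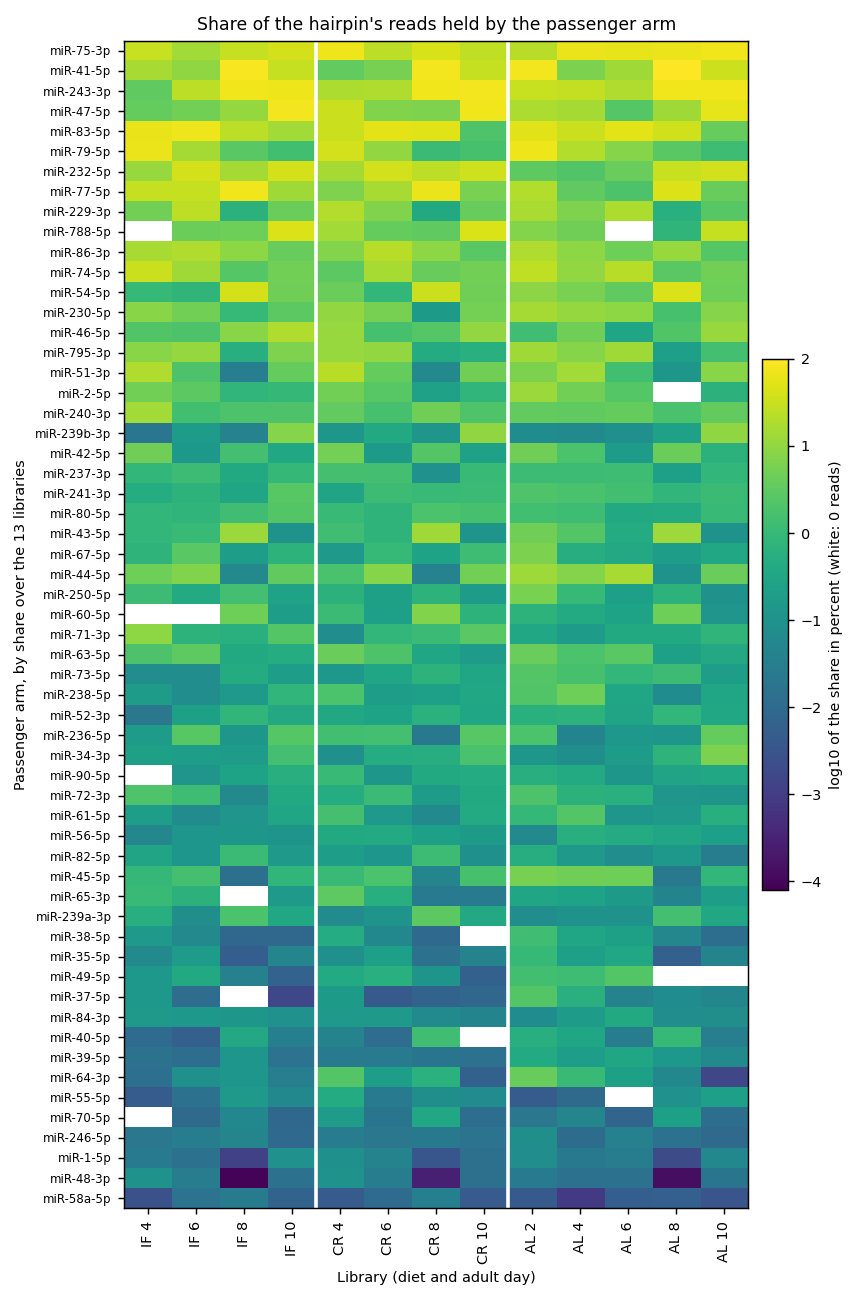
Share of the hairpin's reads held by each of the 58 passenger arms (rows, ordered by their share over the 13 libraries) in each library (columns, diet and adult day), as log10 of the share in percent; white marks 0 reads. Columns of the same day resemble each other across IF, CR and AL, and the day 8 columns of the 3 diets have many of the brightest and darkest cells.

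The median share per library was highest in young worms and lowest at day 8. It was 2.12% in AL worms at day 2. At day 4 it was 0.811% in IF, 1.24% in CR and 1.26% in AL worms, and at day 6 it was 0.704, 0.726 and 0.399%. At day 8 it was 0.4002% in IF, 0.426% in CR and 0.295% in AL worms, and at day 10 it was 0.755, 0.634 and 0.590%. The order of the diets was not the same on all days. These medians cover the arms that met the read minimum and are given as a description.

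In 7 hairpins the arm chosen as the passenger held more reads than its partner in 1 or more libraries, so that there the name passenger goes against the counts. They were miR-243-3p and miR-83-5p (6 libraries each), miR-75-3p (5), miR-41-5p (4), miR-47-5p (3), miR-77-5p and miR-79-5p (2 each).

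The mir-243 hairpin, whose RNA is known to be bound by the Argonaute RDE-1, lies in an intron of R08C7.12 (chromosome IV, 4450779 to 4450876, plus strand). Its 3p arm held 3.33, 24.1, 75.6 and 70.9% of the hairpin's reads in IF worms at days 4, 6, 8 and 10. In CR worms it held 17.7, 19.2, 75.1 and 79.5% at those days, and in AL worms 31.1, 27.6, 18.4, 72.8 and 75.6% at days 2 to 10. All 6 libraries of days 8 and 10 were above all 7 earlier ones. The interval was widest in IF worms at day 10, from 68.9 to 72.8%. Both arms moved: the 5p arm was at 1654, 1071, 499 and 117 CPM in IF worms at days 4 to 10, while the 3p arm was at 56.9, 341, 1541 and 286 CPM.

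The mir-41 hairpin belongs to the mir-35 family, a group of microRNAs of the germline and early embryo without which embryos die. It lies opposite to an intron of Y62F5A.9 (chromosome II, 11538308 to 11538404). Its 5p arm held 16.2, 9.79, 87.8 and 28.7% in IF worms at days 4, 6, 8 and 10, and 3.41, 5.71, 79.9 and 29.2% in CR worms. In AL worms it held 76.0, 6.11, 13.6, 96.6 and 34.4% at days 2 to 10. Day 8 stood above days 4, 6 and 10 in all 3 diets. At day 8 the 5p arm was at 918 CPM in IF, 577 CPM in CR and 2467 CPM in AL worms, against 127, 145 and 86.6 CPM for the 3p arm.

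The 5p arm of mir-47, an intergenic hairpin of chromosome X (13921250 to 13921346), passed its partner at day 10. It held 77.3% of the reads in IF, 72.2% in CR and 57.8% in AL worms there. In the other 10 libraries it held 2.51 to 33.3%. Its level at day 10 was 98.6 CPM in IF, 103 CPM in CR and 155 CPM in AL worms, and its range elsewhere was 1.96 to 42.9 CPM.

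For mir-79, known for a role in neuronal migration and an intergenic hairpin of chromosome I (9332946 to 9333043), the 5p arm was high in young worms. It held 64.8, 15.0, 2.82 and 1.45% in IF worms at days 4, 6, 8 and 10, and 38.7, 10.3, 1.16 and 1.72% in CR worms. In AL worms it held 69.0, 20.2, 7.83, 2.70 and 1.26% at days 2 to 10. Every day 4 value was above every later one.

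The 5p arm of mir-77 (chromosome II, 12519268 to 12519367, intergenic) outnumbered its partner at day 8 in IF (73.7%) and CR worms (66.2%), and reached 46.8% in AL worms. That of mir-83, whose guide is related to the miR-29 family, held 62.5, 71.2, 25 and 14.5% in IF worms at days 4 to 10. It held 32.0, 55.8, 54.3 and 2.14% in CR worms and 52.2, 31.9, 55.4, 35.5 and 3.85% in AL worms at days 2 to 10. It was lowest at day 10 in each diet. Its counts were small: 15 of 24 reads in IF worms at day 4 give an interval of 42.7 to 78.8%, which includes equal arms. So did the intervals of AL day 2 (43.1 to 61.1%), AL day 6 (49.5 to 61.1%) and CR day 8 (45.7 to 62.6%), where this arm also led. The 3p arm of mir-75 followed diet more than day and is described with the diets.

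**Figure D2:**
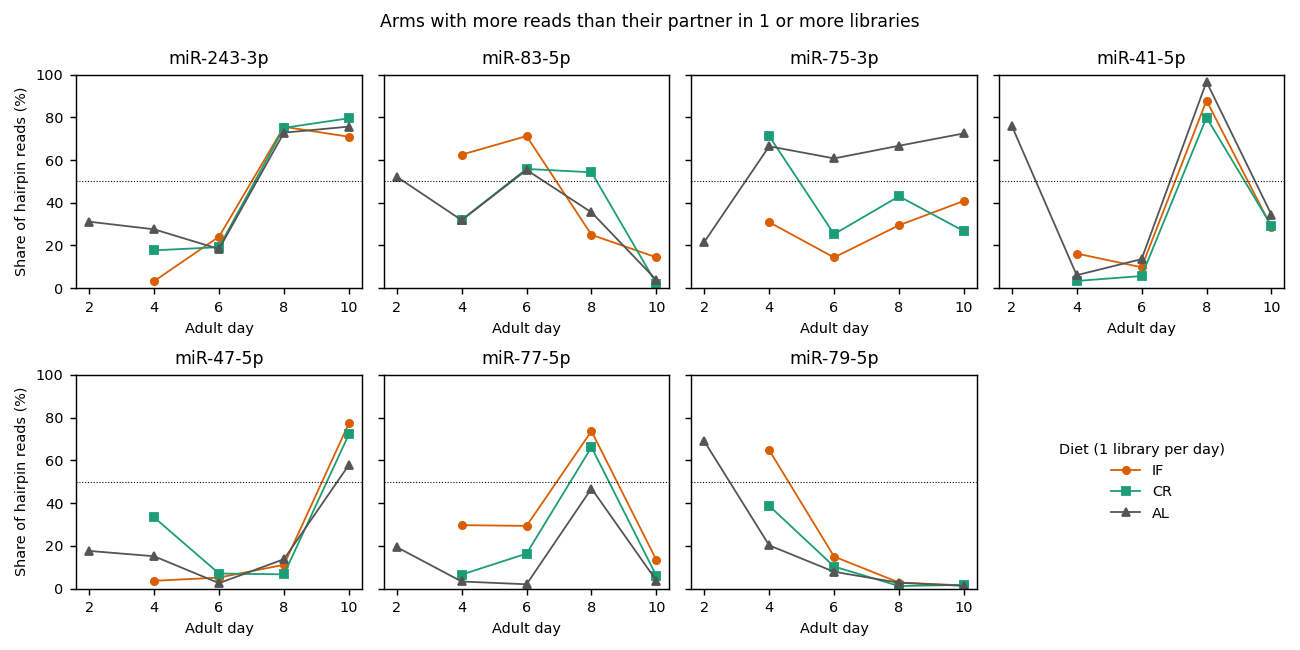
Share of the hairpin's reads (percent) against adult day for the 7 arms that outnumbered their partner in 1 or more libraries; 1 point per library, lines join the days of a diet, and the dotted line is an equal split. miR-243-3p passed it at days 8 and 10, miR-41-5p at day 8 and in AL worms of day 2, and miR-47-5p at day 10. miR-79-5p passed it in AL worms of day 2 and IF worms of day 4, while miR-75-3p stayed above it in AL worms from day 4 on.

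Day was the main axis along which passenger arms varied. Tested with edgeR's quasi-likelihood F test over days 4, 6, 8 and 10, with diet in the model, the ratio of passenger to guide reads changed between days for 45 of 57 passengers, where 77.4% of the 62 hairpins tested passed. Levels changed for 38 of 57, where 76.4% of all 212 mature microRNAs tested passed. Neither share of members is far from that background. For ratios this had to be so, since the 57 passengers are themselves most of the 62 hairpins tested. The ratio backgrounds given below have the same limit and are no independent reference. With all 3 libraries of day 8 left out, 23 passengers remained past the threshold for the ratio and 16 for the level, all of them among the first, where 40.7% of ratios and 39.5% of levels passed over everything tested. The ranges below are the highest minus the lowest fitted day on the log2 scale. Their median was 4.29 for the ratio, 2.54 for passenger levels and 2.65 for guide levels. In 29 of 57 hairpins the passenger's range was the larger of the arms'. Both arms passed the test in 33 hairpins, the guide alone in 17, the passenger alone in 5 and neither in 2.

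In 25 hairpins the day with the highest share was the same in all 3 diets, most often day 8 (10 hairpins). The lowest share fell on the same day in 24, and on day 8 in 12 of them. These counts share the same libraries and describe a common pattern of day. They cover the passengers only, as do the counts without overlap below, so neither sets passengers apart from other microRNAs. By level, the highest day was the same in all 3 diets for 24 passengers and 35 guides. It was day 8 for 11 and 15 of them.

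Shares peaked at day 8 with no overlap with the other 9 libraries in 7 hairpins, namely miR-41-5p, miR-77-5p, miR-54-5p, miR-43-5p, miR-239a-3p, miR-40-5p and miR-60-5p. miR-54-5p, from the mir-51 family known for functions in embryonic and pharyngeal development, held 41.3% in IF, 31.9% in CR and 45.0% in AL worms at day 8, and 0.773 to 5.80% in the other 9 libraries. Its ratio had a range of 5.61 (adjusted p = 1.37e-06 by edgeR). miR-43-5p held 11.96, 13.8 and 12.8% in IF, CR and AL worms at day 8, and 0.101 to 2.32% at days 4, 6 and 10 (range 7.08, adjusted p = 3.55e-08 by edgeR). miR-40-5p and miR-60-5p had 10 reads in only 5 and 4 libraries, and 3 and 2 of these were of day 8, so the read minimum itself favoured a high day 8 in them. miR-43-5p had 10 reads in 8 libraries, with 3 of day 8 and 0 of day 10, so the minimum favoured a high day 8 over day 10 in it too.

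Shares were lowest at day 8 with no overlap in 10 hairpins, namely miR-44-5p, miR-45-5p, miR-35-5p, miR-229-3p, miR-51-3p, miR-230-5p, miR-48-3p, miR-1-5p, miR-237-3p and miR-795-3p. Of these, miR-35-5p, miR-48-3p, miR-1-5p, miR-237-3p and miR-795-3p had 10 reads in no library of day 8. They were kept through the other days, so the read minimum favoured a low day 8 in them. In 8 of the 10 the guide had its highest level at day 8 in all 3 diets, as had 15 of all 58 guides. A high guide itself lowers the share, so picking hairpins by a low share favoured such guides. miR-48-3p, partner of the let-7 family timing microRNA miR-48-5p, had 1, 3 and 2 reads in IF, CR and AL worms at day 8 beside 1090798, 1126810 and 1475732 guide reads. It had 15 to 51 reads in the other 10 libraries, and its ratio had a range of 8.35 (adjusted p = 3.09e-09 by edgeR). The guide ranged over 5.19 and the passenger over 3.23.

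miR-44-5p held 0.0586, 0.0409 and 0.105% in IF, CR and AL worms at day 8 and 1.77 to 15.8% elsewhere. Its level, with a range of 1.16, did not pass the test between days (adjusted p = 0.236 by edgeR), and its guide had a range of 6.17. That holds for TMM scaling, whose factors were 1.54 to 1.63 at day 6 and 0.475 to 0.704 at day 8. With total counts the level of miR-44-5p had a range of 2.50 (adjusted p = 0.00222 by edgeR), and unscaled CPM at day 8 were 48.2 in IF, 20.1 in CR and 33.6 in AL worms, against 230, 222 and 122 at day 6. miR-45-5p behaved alike (level range 0.55, adjusted p = 0.485 by edgeR, and 1.69 and 0.00967 with total counts), but the 2 hairpins share a denominator, since miR-44-3p and miR-45-3p had equal counts in 10 of 13 libraries. The muscle pair did the same at lower depth: miR-1-5p had 2 to 6 reads at day 8, its level did not pass (adjusted p = 0.341 by edgeR, and 0.0989 with total counts), and its guide miR-1-3p was at 57930, 88760 and 94780 CPM in IF, CR and AL worms at day 8 and at 2288 to 22410 CPM at the other days.

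In 5 of the 10 the passenger's own level passed the test between days, namely miR-35-5p, miR-51-3p, miR-229-3p, miR-230-5p and miR-48-3p. miR-51-3p was at 3.92, 1.97 and 4.28 CPM in IF, CR and AL worms at day 8, and at 307, 137 and 55.9 CPM at day 4. Its share at day 8 was 0.0328% in IF, 0.0576% in CR and 0.132% in AL worms, and at day 4 it was 19.0, 22.1 and 14.4% (range 8.44, adjusted p = 3.55e-08 by edgeR). miR-35-5p was at 2.85, 3.94 and 1.43 CPM at day 8 and at 175, 159 and 140 CPM at day 6, in IF, CR and AL worms in each case. The day test of its guide did not pass (adjusted p = 0.0967 by edgeR).

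At day 10, 4 shares stood above the other 9 libraries: miR-47-5p, miR-239b-3p, miR-788-5p and miR-34-3p. miR-239b-3p, whose locus is known for effects on stress and lifespan (chromosome X, 11791302 to 11791399, intergenic), had 331, 195 and 228 reads in IF, CR and AL worms at day 10, and 1 to 12 in the other 10 libraries. Its share was 7.92, 9.55 and 9.84% there and 0.0201 to 0.414% elsewhere. The read minimum was met by those 3 libraries and CR day 6, so it was kept because it is high at day 10. miR-788-5p reached 46.6% in IF, 44.8% in CR and 28.8% in AL worms at day 10, on 27, 26 and 23 reads. At day 4, miR-79-5p, miR-37-5p, miR-51-3p and miR-2-5p stood above the other 9.

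With age as a line over all 13 libraries, the ratio of passenger to guide changed for 10 of 58 passengers, where 15.6% of the 64 hairpins tested passed. It rose for 3 (background 4.69%) and fell for 7 (background 10.9%). The 58 passengers are part of these 64 hairpins, and all 10 that passed are passengers. Levels changed for 11 of 58, where 13.6% of all 214 microRNAs passed, rising for 2 (background 6.54%) and falling for 9 (background 7.01%). This model does not hold day as a block, and with day as a random block 2 ratios and 2 levels passed by limma, those of miR-79-5p and miR-38-5p, where 3.12% of all ratios and 1.87% of all levels did, so the other slopes named below passed only without it. The median slope of the members' levels was -0.03 log2 per day, against 0.04 over all tested, and that of the ratio was -0.17 against -0.14.

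miR-79-5p was high in worms of days 2 and 4 and low at days 8 and 10. Its level changed by -0.86 ± 0.13 log2 per day (SE; adjusted p = 0.00098 by edgeR) and its ratio by -0.97 ± 0.14 (adjusted p = 0.000225 by edgeR), while its guide had a slope of 0.09 ± 0.09. Without the day 4 libraries its level did not pass (adjusted p = 0.0546 by edgeR). miR-38-5p of the mir-35 family fell by 1.02 log2 per day in level (SE 0.15, adjusted p = 0.00098 by edgeR). It was at 28.7, 10.3, 0.713 and 0.743 CPM in IF worms at days 4 to 10. In CR worms it was at 46.4, 14.7, 0.985 CPM and no reads at day 10, and in AL worms at 86.4, 52.6, 44.0, 3.33 and 0.943 CPM at days 2 to 10. These were the only 2 members whose level and ratio both passed with every library left out in turn and with day as a random block. However, miR-38-5p met the read minimum in 7 libraries, all of days 2, 4 and 6. miR-79-5p met it in 9, with 0 of day 8 and 2 of day 10. The minimum thus favoured a fall with age in both.

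The other falling levels were those of miR-37-5p (-0.75 ± 0.16), miR-42-5p (-0.63 ± 0.11), miR-49-5p (-0.57 ± 0.16), miR-2-5p (-0.46 ± 0.14), miR-229-3p (-0.43 ± 0.13), miR-39-5p (-0.39 ± 0.12) and miR-250-5p (-0.36 ± 0.10), all log2 per day with SE. Among them, miR-49-5p met the read minimum in 6 libraries, all of days 2, 4 and 6. miR-37-5p met it in 7, none of day 8 and 1 of day 10. The minimum thus favoured a fall with age in level and ratio for both. miR-2-5p met it in 10 libraries, with 0 of day 8. Rising levels were those of miR-239b-3p (0.94 ± 0.17) and miR-47-5p (0.47 ± 0.14). Both rises lie at day 10, and without the day 10 libraries the slope of miR-47-5p was -0.05. As said above, miR-239b-3p was kept through the day 10 libraries and CR day 6. The read minimum therefore favoured a rise in its level and ratio.

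The rising ratios were those of miR-239b-3p (1.01 ± 0.25), miR-243-3p (0.68 ± 0.17) and miR-34-3p (0.62 ± 0.16). miR-34-5p, the guide of the last, is a conserved microRNA studied in ageing and stress, and its own level had a slope of -0.51 ± 0.12 (adjusted p = 0.0113 by edgeR). The passenger was at 2.03 to 13.7 CPM. Beside miR-79-5p and miR-38-5p, ratios fell for miR-64-3p (-0.98 ± 0.29), miR-49-5p (-0.92 ± 0.22), miR-37-5p (-0.79 ± 0.20), miR-2-5p (-0.57 ± 0.15) and miR-63-5p (-0.57 ± 0.14). For miR-63-5p and miR-64-3p the guide rose (0.70 ± 0.09 and 0.87 ± 0.17 log2 per day) and the passenger's slope did not pass the test.

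Without the AL day 2 library, 6 levels and 7 ratios of passengers passed, and the share over everything tested is not given for this setting. With day as a random block, the adjusted p of the slopes other than those of miR-79-5p and miR-38-5p was 0.052 to 0.434 for levels and 0.0626 to 0.17 for ratios by limma.

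**Figure D3:**
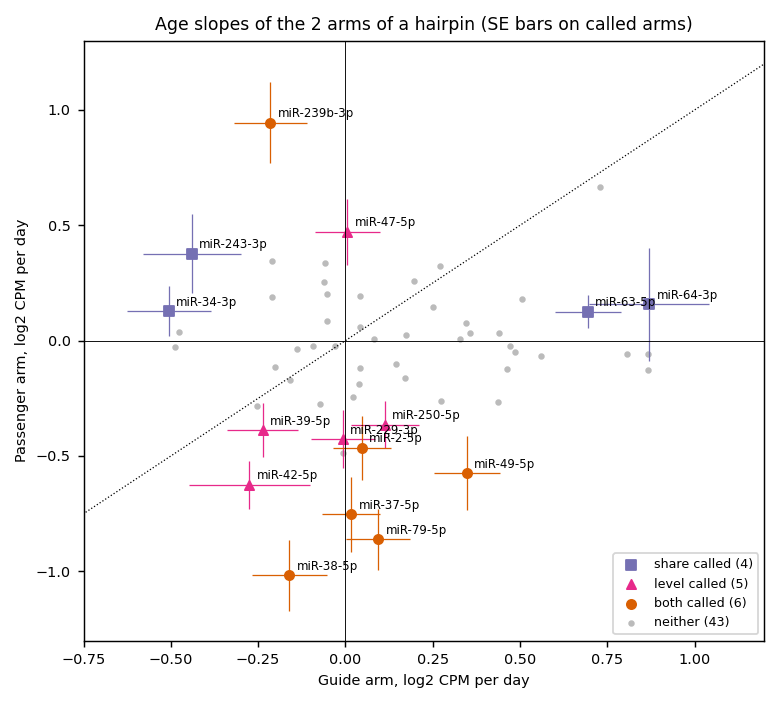
Slope of the passenger arm's level (vertical axis, log2 CPM per adult day) against that of its guide (horizontal axis, the same unit) for the 58 hairpins, over 13 libraries with diet in the model; bars are SE, the dotted line marks equal slopes, and marks show whether the level, the ratio of the arms or both passed the test. miR-79-5p, miR-37-5p and miR-38-5p fell with guides near 0, and miR-63-5p and miR-64-3p lay far from the line through their guides.

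The mir-35 family gave 7 of its 8 hairpins, 6 of them in 1 cluster on chromosome II (11537608 to 11538404). All 7 passenger levels changed between days, where 76.4% of all microRNAs did, and 4 fell with age, miR-37-5p, miR-38-5p, miR-39-5p and miR-42-5p, where 7.01% of all microRNAs did. With day as a random block miR-38-5p, whose fall the read minimum favoured, passed. The adjusted p was then 0.0742 for miR-37-5p, 0.0617 for miR-42-5p and 0.239 for miR-39-5p by limma. They did not move as a block. At day 8, miR-41-5p was at its highest of days 4 to 10 in each diet, and miR-35-5p at its lowest. The 8 guides of the family, used as markers of oocytes and embryos, summed to 411700, 192600, 93340 and 108700 CPM in IF worms at days 4 to 10. They summed to 179800, 167600, 46910 and 84750 CPM in CR worms and to 146200, 168400, 99790, 38720 and 74240 CPM in AL worms at days 2 to 10. Their part in the passenger results was not tested.

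**Figure D4:**
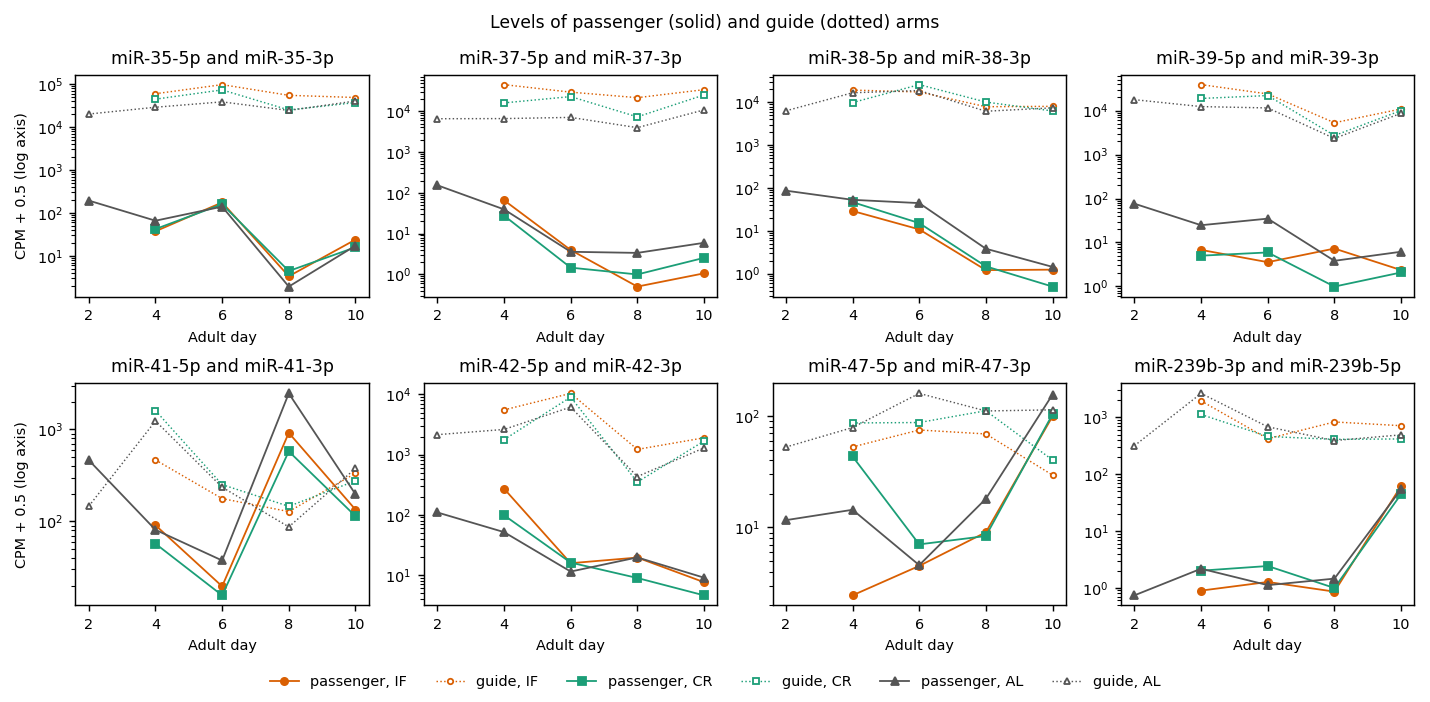
Levels of passenger (solid lines, filled marks) and guide arms (dotted lines, open marks) against adult day for 6 hairpins of the mir-35 family and for mir-47 and mir-239b, in CPM plus 0.5 on a log axis, with 1 point per library. The solid lines of miR-37-5p and miR-38-5p fall with day while their guides stay within narrower ranges, miR-41-5p rises above its guide at day 8, and miR-47-5p and miR-239b-3p rise at day 10.

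The question of the series, whether diet changes microRNAs during ageing, was put to the passengers with day in the model. In IF against AL worms, the ratio of the arms differed for 5 of 57 passengers, where 8.06% of 62 hairpins passed. It was higher for 2 (background 3.23%) and lower for 3 (background 4.84%). In CR against AL worms it differed for 3, where 4.84% passed, higher for 1 (background 1.61%) and lower for 2 (background 3.23%). The 57 passengers are part of the 62 hairpins, and every ratio that passed was that of a passenger. Both comparisons use the same AL libraries. Means below are over days 4, 6, 8 and 10 with the SD between days (n = 4 for each diet), and each difference that passed had the same direction on all 4 days.

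The 3p arm of mir-75 (chromosome X, 2372453 to 2372549, intergenic) held 30.9, 14.4, 29.5 and 40.9% in IF worms at days 4, 6, 8 and 10. In CR worms it held 71.2, 25.3, 43.02 and 26.7%, and in AL worms 66.4, 60.8, 66.7 and 72.5%. The IF and AL values did not overlap, with means of 28.9 ± 10.9% and 66.6 ± 4.8%. The CR values reached from the IF range into the AL range. The log2 ratio of the arms was lower by 2.38 in IF than in AL worms (log2 difference -2.38, SE 0.61, adjusted p = 0.00776 by edgeR), and the CR difference of -1.54 did not pass (adjusted p = 0.264 by edgeR). The level fell too, to 16.3 ± 7.7 CPM in IF worms against 61.4 ± 30.2 CPM in AL worms (-1.92 ± 0.41, adjusted p = 0.00788 by edgeR). The guide's difference of 0.51 ± 0.35 did not pass (adjusted p = 0.327 by edgeR). In AL worms of day 2 the share was 21.7%, below all later AL values.

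The 5p arm of mir-77 held 29.7, 29.3, 73.7 and 13.3% in IF worms and 6.52, 16.4, 66.2 and 5.95% in CR worms. In AL worms it held 3.30, 1.99, 46.8 and 3.73% at the same days. On each day the share was highest in IF worms and lowest in AL worms. The log2 ratio was higher by 2.90 ± 0.65 in IF than in AL worms (adjusted p = 0.00702 by edgeR). In CR worms it was higher by 1.53 ± 0.64, which did not pass (adjusted p = 0.264 by edgeR). The guide was lower in IF worms, by 2.18 on the log2 scale (log2 difference -2.18, SE 0.36, adjusted p = 0.00165 by edgeR).

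miR-58a-5p is the passenger of miR-58a-3p, the most abundant guide of these hairpins, whose family acts in growth and dauer signalling (chromosome IV, 3233254 to 3233350, in an intron of Y67D8A.2). It held 0.00263, 0.0165, 0.0246 and 0.00709% in IF worms at days 4 to 10. It held 0.00455, 0.0105, 0.0343 and 0.00459% in CR worms and 0.000877, 0.00542, 0.00601 and 0.00317% in AL worms. The log2 ratio was higher by 1.60 ± 0.39 in IF (adjusted p = 0.00716 by edgeR) and by 1.59 ± 0.39 in CR than in AL worms (adjusted p = 0.0228 by edgeR). The guide was lower in IF worms (-1.31 ± 0.31, adjusted p = 0.0115 by edgeR), and the difference of the passenger's own level passed for neither diet.

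miR-37-5p (chromosome II, 11537833 to 11537930) had 166, 18, 0 and 3 reads in IF worms beside 114501, 153472, 60339 and 182163 guide reads at days 4 to 10. It had 108, 6, 1 and 9 reads in CR worms and 139, 15, 6 and 23 in AL worms. Its share averaged 0.0395 ± 0.0704% in IF, 0.0469 ± 0.0811% in CR and 0.187 ± 0.264% in AL worms. The 0 of IF day 8 allows a share of up to 0.00497%. The log2 ratio was lower in IF (-3.32 ± 0.80, adjusted p = 0.00716 by edgeR) and in CR than in AL worms (-2.74 ± 0.80, adjusted p = 0.041 by edgeR). The arm met the read minimum in 4 AL libraries, day 2 among them, and in 2 IF and 1 CR libraries. The minimum thus favoured a higher AL value. The guide miR-37-3p was higher in IF worms, by 2.26 ± 0.35 (adjusted p = 0.00165 by edgeR).

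miR-39-5p (chromosome II, 11538089 to 11538175) held 0.0161, 0.0128, 0.128 and 0.0171% in IF worms and 0.0239, 0.0247, 0.0182 and 0.0158% in CR worms at days 4 to 10. In AL worms it held 0.196, 0.299, 0.143 and 0.0651%. All CR values were below all AL values, while IF day 8 lay within the AL range. The CR shares rested on 18, 34, 1 and 7 reads. The interval of CR day 8, 0.00321 to 0.103%, included the AL day 10 share. The arm met the read minimum in 2 CR and 4 AL libraries, so the minimum favoured a higher value in AL than in CR worms. The log2 ratio was lower in IF (-2.64 ± 0.77, adjusted p = 0.0227 by edgeR) and in CR than in AL worms (-2.80 ± 0.78, adjusted p = 0.0371 by edgeR). The guide miR-39-3p was higher in IF than in AL worms, by 1.07 on the log2 scale (adjusted p = 0.0416 by edgeR). Its CR difference of 0.48 did not pass (adjusted p = 0.473 by edgeR).

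**Figure D5:**
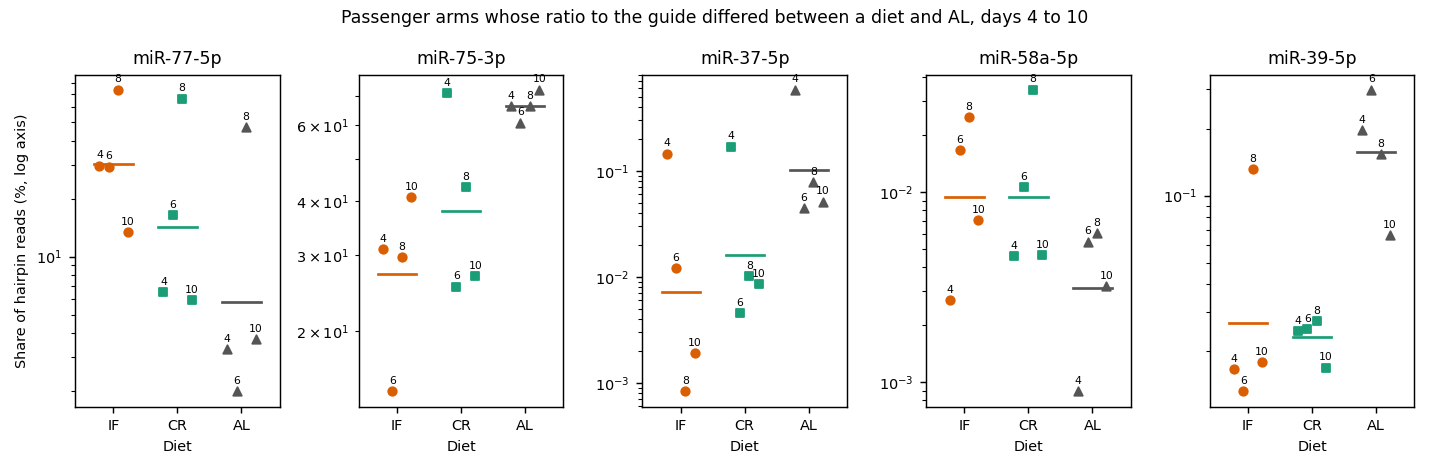
Share of the hairpin's reads (percent, log axis, 0.5 reads added to each arm) for the 5 passengers whose ratio to the guide differed from AL in IF or CR worms; 1 point per library of days 4 to 10, labelled with its day, and bars are geometric means. miR-75-3p, miR-37-5p and miR-39-5p sit lower in IF than in AL worms, and miR-77-5p and miR-58a-5p sit higher.

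Leaving out 1 library ended some of these calls. In IF against AL worms, miR-77-5p and miR-37-5p passed with each of the 12 libraries left out. miR-75-3p and miR-58a-5p did not pass without IF day 4 or IF day 6 (largest adjusted p = 0.0664 for both by edgeR), and miR-39-5p did not pass without AL day 4, AL day 6, IF day 4 or IF day 6 (up to 0.277). In CR against AL worms, miR-37-5p passed in 3, miR-39-5p in 4 and miR-58a-5p in 6 of the 12 such fits. The calls of miR-58a-5p also ended with DESeq2 (adjusted p = 0.304 in IF and 0.442 in CR) and with limma on log2 ratios with 0.5 reads added (0.117 and 0.251). Those of CR against AL ended with limma for miR-37-5p (0.113) and miR-39-5p (0.0644) too. Without day in the model no passenger differed by diet.

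Levels differed in IF against AL worms for 3 of 57 passengers, where 14.2% of 212 microRNAs passed, and all 3 were lower (background 5.66%; 8.49% of all microRNAs were higher). The members' median difference was -0.16 on the log2 scale, against 0.03 over all. Beside miR-75-3p these were miR-70-5p and miR-73-5p. miR-70-5p had 0, 2, 3 and 1 reads in IF worms at days 4 to 10, against 16, 4, 15 and 3 in AL worms (-2.53 ± 0.68, adjusted p = 0.0216 by edgeR). It met the read minimum in 2 CR and 2 AL libraries and in no IF library, so the minimum favoured a low IF level. miR-73-5p was at 1.18, 1.53, 36.0 and 5.20 CPM in IF worms, against 10.6, 8.19, 77.0 and 5.89 CPM in AL worms (-1.50 ± 0.47, adjusted p = 0.0423 by edgeR), and it passed in 4 of the 12 fits with 1 library left out. Its IF values of days 4 and 6 rest on 3 and 8 reads. It met the read minimum in 2 IF, 4 CR and 5 AL libraries, so the minimum favoured a low IF level in it too. miR-75-3p passed except without AL day 6 (adjusted p = 0.0557 by edgeR), and miR-70-5p did not pass without AL day 6, IF day 4 or IF day 8, nor without 4 other libraries, where it missed the read minimum.

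Scaling mattered for levels. With total counts in place of TMM, the median of all microRNAs moved by 0.42 in both the IF and the CR comparison with AL, and 4 passengers were then higher and 1 lower in IF than in AL worms. With TMM the same comparison gave 0 higher and 3 lower. The median IF difference with total counts was 0.45 over all microRNAs and 0.33 over the passengers. The share of all microRNAs called at that setting is not given here, so the 4 higher calls are not a result about passengers. Between days, the levels of 46 passengers passed with total counts, where 84.9% of all microRNAs tested did, and 35 of these were among the 38 of TMM. The ratios of arms do not depend on this.

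No passenger's level differed in CR against AL worms by edgeR, where 0% of 212 microRNAs passed. An unadjusted p under 0.05 was found for 7 of 57 passengers and for 39 of all 212. DESeq2 called 2 passengers and limma-voom 0. The smallest p-values were those of miR-39-5p, at 3.01 ± 2.35 CPM in CR worms and 16.9 ± 14.9 CPM in AL worms (-2.30 ± 0.59, adjusted p = 0.0577 by edgeR), and miR-41-5p (-1.21 ± 0.35, adjusted p = 0.0698 by edgeR). Next were miR-40-5p (-1.90 ± 0.68), miR-75-3p (-1.005 ± 0.402), miR-38-5p (-1.19 ± 0.50), miR-72-3p (0.82 ± 0.35) and miR-73-5p (-0.98 ± 0.46).

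Between CR and IF worms no level differed by edgeR, where 0% of 212 passed. An unadjusted p under 0.05 was found for 5 of 57 passengers and for 18 of all 212. DESeq2 and limma-voom called 0 passengers. The smallest p was that of miR-70-5p (2.52 ± 0.68, adjusted p = 0.42 by edgeR), which met the read minimum in 2 CR and in no IF libraries, so the minimum favoured a higher CR level. No ratio differed either, where 0% of 62 passed. An unadjusted p under 0.05 was found for 4 passengers, and for 4 over all 62, and DESeq2 called 0. miR-60-5p (1.69 ± 0.75) and miR-77-5p (-1.37 ± 0.64) had the smallest p-values. miR-60-5p met the minimum in 3 CR libraries, 1 AL library and no IF library, so it too was favoured towards a higher CR value. A separate slope with age for each diet was called for no passenger by edgeR, in level (0 of 57 at an unadjusted p under 0.05) or in ratio (1 of 57).

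By family, the let-7 passengers miR-48-3p, miR-84-3p, miR-241-3p and miR-795-3p passed no test of diet or age, and between days the ratio changed for 2 and the level for 1 of the 4. Of 5 passengers of the mir-51 family, 3 changed between days in level and 3 in ratio. Over everything tested 76.4% of levels and 77.4% of ratios did. The bantam-like mir-58 family gave miR-58a-5p, miR-80-5p and miR-82-5p. miR-80-5p was at 127 to 636 CPM in the 13 libraries and passed neither test between days (adjusted p = 0.0868 for the level and 0.266 for the ratio by edgeR), but its level passed with total counts (adjusted p = 0.0236 by edgeR). All 3 passengers of the mir-238 family, miR-238-5p, miR-239a-3p and miR-239b-3p, changed between days in level and ratio, and with so few members that count cannot be set apart from the same background. The mir-251 and mir-87 families gave no passenger that met the read minimum.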

How the data were processed

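RNA of 18 to 30 nt was purified on a gel and made into libraries with an Illumina small RNA kit, per the labels' protocols, which mention no molecular identifiers. The authors deposited raw read counts per mature microRNA and precursor for each of 13 libraries. For the aligner, counter, database release and build, nothing is stated (not given in the sources used here).

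Entries of the same mature microRNA were collapsed to their highest count (447 entries to 434; at most 0.219% of a library's reads). Passengers follow the read rule stated in the results; members and lists were chosen with earlier results of these data known. The named passengers are those with most reads, the highest and lowest shares, those past a threshold or with the smallest p-values, those near the read minimum, those that outnumber their partner in a library and up to 3 per family; near-identical sequences were not compared here. Positions come from WBcel235 (Ensembl release 115).

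Levels were tested with edgeR 4.0.16 in R 4.3.3 (quasi-likelihood, two-sided, TMM, 10 reads in 4 libraries), and ratios with the same test on both arms as 2 columns per library. Diet models held day as a factor (12 libraries), age models diet (13). Adjustment was Benjamini-Hochberg over everything tested, threshold 0.05. Steps were tested on simulated data. Alternatives used DESeq2 1.42.0 and limma 3.58.1, other scaling, filters and blocks, and libraries or days left out; the test of separate slopes was chosen after seeing the data. Day numbers pair the libraries: deviations of same-day libraries of other diets correlated at 0.554 to 0.894 (12 pairs), against -0.586 to 0.317 for other days (36 pairs). Deviations were taken from each diet's mean over days. Where same-day values are positive, this alone tends to make the other-day values negative.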

Additional observations from a re-analysis of the deposited data

Results flagged for a closer look

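Within each diet, the share of 19 reported passengers and 3 summaries over all passengers were each searched for a library far from the others of that diet by Dixon's test; 11 of 66 groups were marked, where chance marks about 1 in 20. At day 10, miR-47-5p stood apart with 77.29% in IF worms and 57.83% in AL worms. In worms of days 2 and 4, 6 shares stood apart. These were miR-238-5p with 1.891% in CR worms of day 4, miR-37-5p with 0.1448% in IF worms of day 4, 0.1686% in CR worms of day 4 and 2.275% in AL worms of day 2, and miR-79-5p with 68.95% and miR-75-3p with 21.65% in AL worms of day 2, the last of these below the other AL days. The other marks were miR-39-5p with 0.1278% in IF worms of day 8, miR-238-5p with 0.8194% in IF worms of day 10 and miR-70-5p with 0.2379% in AL worms of day 8, a share that rests on 15 reads. What sets these libraries apart was not tested.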

How the results depend on the processing

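Of 1202 values of single passengers under the alternatives, 980 kept their direction and side of the threshold, 221 kept their direction and no longer passed, and 1 turned: the level slope of miR-47-5p was -0.05357 without the day 10 libraries. Counts of passengers past the threshold moved more; the cause was not tested unless fewer samples or genes entered. For IF against AL levels (3), DESeq2 gave 8, no filter 8, limma-voom 5, total counts 5, no day 10 libraries 5, only these diets 1, no day 6 libraries 0, day as a number 0 and no replicate block 0; leaving out 1 library gave 0 to 5. For CR against AL levels (0), no filter gave 4, DESeq2 2, DESeq2 size factors 2, and 100 reads in 4 libraries, only these diets and no day 8 libraries 1 each; leaving out 1 library gave 0 to 2. For level slopes (11), DESeq2 gave 17, 100 reads 6, no AL day 2 library 6, total counts 5, no day 6 libraries 5, no day 4 libraries 2 and the replicate block with day as random 2; leaving out 1 library gave 5 to 11. Levels between days (38) fell to 16 without day 8 and 13 with 100 reads. For IF against AL ratios (5), 100 reads, no day 4 and no day 8 libraries gave 2 each, no day 6 libraries 1, and no replicate block and day as a number 0 each; leaving out 1 library gave 2 to 6. For CR against AL ratios (3), no day 6 and no day 10 libraries gave 1 each, and limma with 0.5 or 5 reads added, 100 reads, no replicate block, day as a number, no day 4 and no day 8 libraries 0 each; leaving out 1 library gave 0 to 3. For ratio slopes (10), DESeq2 gave 22, limma with 5 added 16, no day 8 libraries 16, no day 6 libraries 6, 100 reads 5, no day 4 libraries 4 and the replicate block with day as random 2. Ratios between days (45) fell to 23 without day 8 and 14 with 100 reads. The stricter filter leaves fewer passengers in the test. All these counts are of passengers alone and are given here without the share over everything tested. Depth limits passengers with few reads: in AL worms of day 8, 36 of 58 had 10 reads.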
